A study of Mus musculus with 2 samples.

Results

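The 10 genes described here are the 8 mouse SMADs (Smad1, Smad2, Smad3, Smad4, Smad5, Smad6, Smad7 and Smad9) and the corepressors Ski and Skil, found by symbol among the 32285 genes of the deposited tables, and all 10 were found. They were measured in single cells of omental tumors from female C57Bl6J mice aged 12 to 16 weeks, at day 10 after an intraperitoneal graft of 1 of a pair of mouse ovarian cancer lines of Fallopian tube epithelial origin. KPCA.FSTKO derives from the KPCA.C clone and has lost Fst, which encodes follistatin, a secreted inhibitor of activin. KPCA.FSTKO_hFSTL3 is a stable clone of that line, picked for secretion of human FSTL3 from a transfected plasmid, so that both lines lack Fst and differ in the transgene and in being a parent line or 1 clone of it. The human transcript is not part of the mouse reference. Each line gave 1 library from 4 pooled tumors, so replicates are lacking and nothing was tested. Intervals given below are exact 95% intervals that cover counting error only, not the spread between mice.

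SMADs carry signals of the transforming growth factor beta (TGF-beta) family from receptors at the cell surface to the genome. The receptors phosphorylate receptor-activated SMADs, of which SMAD2 and SMAD3 serve activins and TGF-beta and SMAD1, SMAD5 and SMAD9 serve bone morphogenetic proteins (BMPs). Both kinds join SMAD4 to regulate target genes, the inhibitory SMAD6 and SMAD7 dampen the receptors as feedback, and SKI and SKIL (SnoN) hold SMAD-bound genes in check. Follistatin and FSTL3 act upstream of all of these, by binding activins and some BMPs outside the cell. The data hold RNA, and phosphorylation, which sets SMAD activity, was not measured.

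The tables held 7582 and 4244 barcodes with 168214773 and 80391504 UMIs (unique molecular identifiers, each marking 1 captured RNA molecule) for KPCA.FSTKO and KPCA.FSTKO_hFSTL3. These are also the cell numbers the study lists after quality control. A mitochondrial share under 20% and more than 200 but fewer than 8000 genes, its stated limits, left 6777 and 4041 barcodes. Only 12 barcode sequences occurred in both libraries. Cells were put in classes by marker genes. In KPCA.FSTKO 3025 barcodes were cancer-like, 392 stromal-like (mesothelial, fibroblast or mural markers), 845 macrophage-like and 74 endothelial-like, and in KPCA.FSTKO_hFSTL3 these numbers were 2470, 74, 153 and 12. A further 2090 and 1260 barcodes, with median UMI numbers of 3664.5 and 2867, reached no class. The KPCA.FSTKO_hFSTL3 library stood apart in its cancer-like barcodes. Their median share of UMIs from pancreatic acinar genes was 0.989% against 0.0023% in KPCA.FSTKO, their median mitochondrial share 11.7% against 3.58%, and the 12 macrophage markers summed to 2614 CPM (UMIs of a gene per 1000000 UMIs of the class) against 106. Only 198 of the 2470 had an acinar share up to 0.2%, a limit chosen after the data were seen, and in those the macrophage markers also summed to 106 CPM. Ratios of other classes to the cancer-like cells of KPCA.FSTKO_hFSTL3 are therefore also given with little acinar RNA, which means against those 198 and with the other class held to the same limit, wherever that took a ratio out of its counting interval. The counts of pathway genes against cancer-like cells and the comparison by cell division were made on all 2470. Fst RNA was still found in the cancer-like cells, at 5.44 CPM in KPCA.FSTKO and at 18.4 CPM in KPCA.FSTKO_hFSTL3 (8.70 CPM in the 198), which does not check a knockout by gene editing.

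Endothelial-like cells stood out for the BMP branch, with more Smad1 and Smad5 than the other 3 main classes, and macrophage-like cells for low Smad3 and Smad7. Smad4 and Ski were higher in macrophage-like than in cancer-like cells, but not clearly higher than in endothelial-like cells. Neutrophil-like cells of KPCA.FSTKO had more of both. In KPCA.FSTKO_hFSTL3 the Smad4 excess over cancer-like cells fell to a log2 ratio of 0.28 with little acinar RNA. Stromal-like cells also had more Smad1 and Smad5 than cancer-like cells. Smad9 was at or under 4 UMIs in each of the 4 classes. Between the libraries, no member differed by 2-fold in cancer-like or macrophage-like cells, and Smad6, the 1 member that did in stromal-like cells, no longer did without 1 barcode. The 2-fold rule used throughout counts a gene as higher or lower with at least 100 UMIs over both sides and a CPM ratio of at least 2 in either direction.

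**Figure D1:**
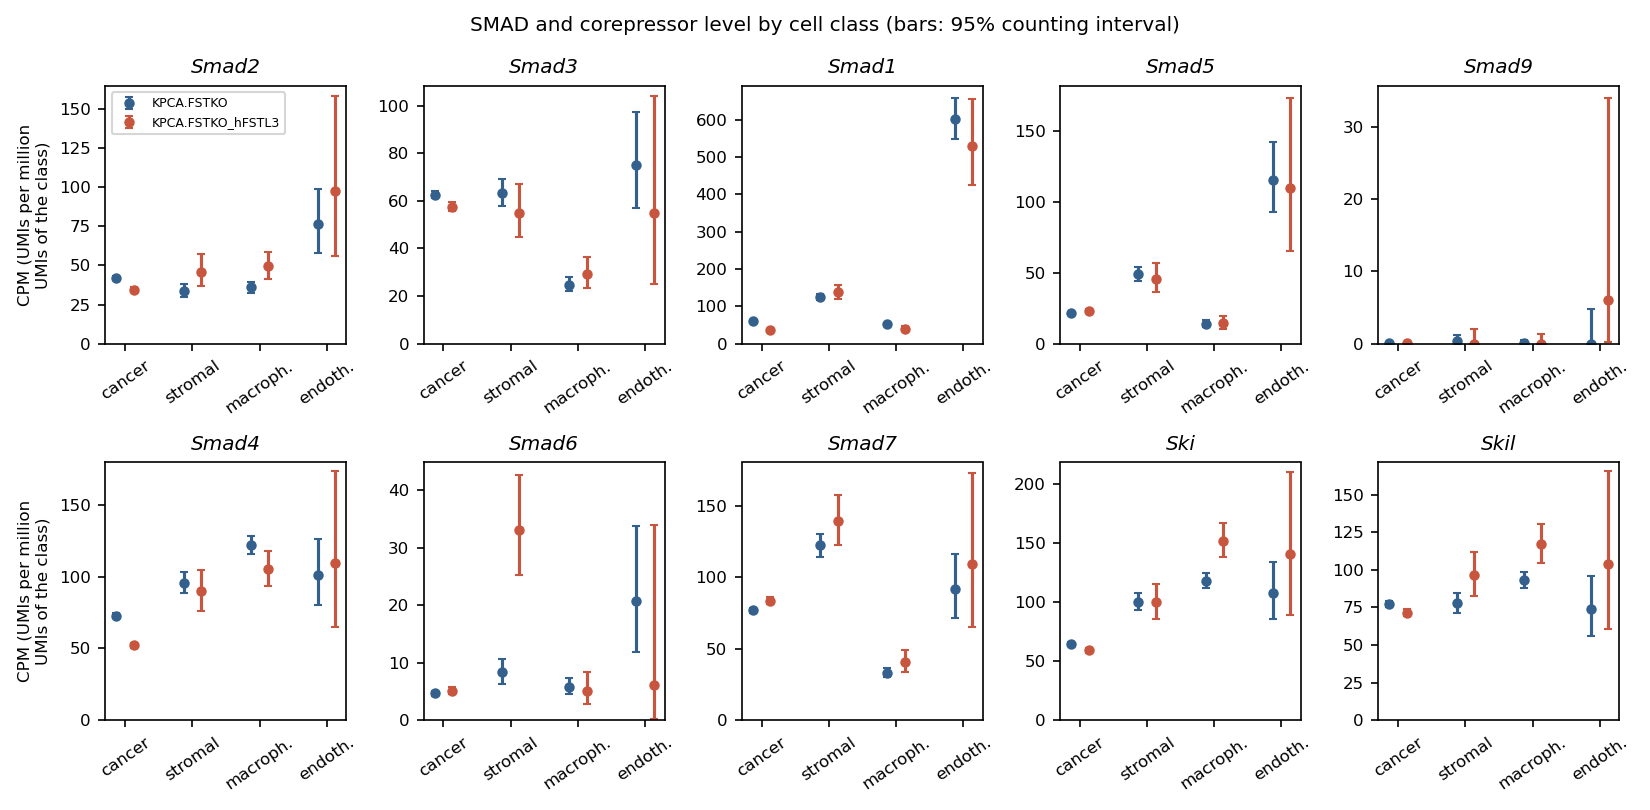
CPM of each member (y axis, from 0, a scale of its own in each panel) in cancer-like, stromal-like, macrophage-like and endothelial-like cells of KPCA.FSTKO (blue) and KPCA.FSTKO_hFSTL3 (red), with exact 95% Poisson intervals as bars. Smad1 sits at 602 and 530 CPM in endothelial-like cells and at or below 137 CPM elsewhere, and Smad3 and Smad7 are lowest in macrophage-like cells in both libraries. Endothelial-like Smad3 of KPCA.FSTKO_hFSTL3 rests on 9 UMIs.

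Smad2 and Smad3 encode the receptor-activated SMADs of activin and TGF-beta. On mm10 (GRCm38, GENCODE vM21) Smad3 spans chr9:63646767-63757994 on the minus strand and Smad2 chr18:76241580-76310963 on the plus strand. In KPCA.FSTKO Smad3 was at 62.5 CPM in cancer-like cells (6246 UMIs, interval 61.0 to 64.1), 63.3 CPM in stromal-like, 75.2 CPM in endothelial-like and 24.8 CPM in macrophage-like cells (289 UMIs, 22.0 to 27.8). In KPCA.FSTKO_hFSTL3 the same classes had 57.5, 55.0, 54.9 and 29.4 CPM. The endothelial-like value there rests on 9 UMIs, 4 of them in 1 barcode. Without that barcode it was 39.5 CPM (12.8 to 92.2), an interval that holds the macrophage-like level. Macrophage-like cells had the lowest value of the 4 classes in both libraries. The other 3 could not be told apart in the order of their levels, since the interval of each neighbouring ratio held 1. In KPCA.FSTKO_hFSTL3 that holds for all cancer-like cells only, because those with little acinar RNA had 98.9 CPM, and the log2 ratio to them was -0.84 in place of -0.06 for stromal-like and -0.73 in place of -0.07 for endothelial-like cells. The ratio of macrophage-like to cancer-like cells was 0.396 (0.351 to 0.446) for KPCA.FSTKO. For KPCA.FSTKO_hFSTL3 it was 0.511 (0.406 to 0.636) and lower still with little acinar RNA (log2 ratio -1.89 in place of -0.97).

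By the share of cells with a Smad3 UMI at equal depth, macrophage-like cells of KPCA.FSTKO were again lowest of the main classes. The other main classes ranked differently than by CPM. As deposited, 71.6% of the cancer-like and 169 of 845 macrophage-like cells of KPCA.FSTKO had a Smad3 UMI, at median depths of 31226 and 13127 UMIs. After thinning each cell to 1000 UMIs the shares were 7.40% in stromal-like, 5.65% in cancer-like, 5.41% in endothelial-like and 2.38% in macrophage-like cells. Erythroid-like cells, which served as background, had 2.53% (3 macrophage-like and 7 erythroid-like cells under that depth were left out). The thinned share in macrophage-like cells could thus not be told from background, which rests on only 86 erythroid-like cells with 4 Smad3 UMIs in all. The macrophage-like 24.8 CPM against 9.80 CPM in erythroid-like cells had a ratio whose interval held 1 (2.53, 0.977 to 9.34, at median depths of 13127 and 4161.5 UMIs). Within stromal-like cells of KPCA.FSTKO, Smad3 ran from 14.2 CPM in the 26 cells with mural but not fibroblast markers (5 UMIs, 4.60 to 33.1) to 105 CPM in the 16 with mesothelial markers (74.8 to 143).

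Smad2 was at 42.2 CPM in cancer-like, 33.8 in stromal-like, 36.0 in macrophage-like and 76.5 CPM in endothelial-like cells of KPCA.FSTKO, while the KPCA.FSTKO_hFSTL3 levels were 34.4, 46.0, 49.5 and 97.6 CPM. Endothelial-like cells were highest of the 4 in both libraries, although on only 59 and 16 UMIs. Cancer-like cells were above stromal-like and macrophage-like cells in the first library and below them in the second, but not with little acinar RNA, where the log2 ratios to cancer-like cells in KPCA.FSTKO_hFSTL3 were -0.31 in place of 0.42 and -0.18 in place of 0.52. For endothelial-like cells the ratio was 1.01 in place of 1.502.

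Smad1, Smad5 and Smad9 encode the receptor-activated SMADs of the BMP branch, on which blood vessels rely for their growth and quiescence. Smad1 (chr8:79338395-79399518, minus strand) was at 602 CPM in the 74 endothelial-like cells of KPCA.FSTKO (464 UMIs, 548 to 659), against 126 CPM in stromal-like, 60.9 in cancer-like and 52.0 CPM in macrophage-like cells. In that order of classes KPCA.FSTKO_hFSTL3 had 530, 137, 37.2 and 39.4 CPM. Endothelial-like cells were thus 9.89-fold (8.98 to 10.9) above cancer-like cells in the first library and 14.3-fold (11.4 to 17.7) in the second, where only 12 cells and 87 UMIs carry the value. Against the cancer-like cells with little acinar RNA the log2 ratio in KPCA.FSTKO_hFSTL3 was 3.43 in place of 3.83, and it was 1.49 in place of 1.88 for stromal-like and -0.39 in place of 0.08 for macrophage-like cells. The endothelial-like barcode with the most Smad1 UMIs held 9.27% of them in KPCA.FSTKO, and without it the level was 586 CPM. For KPCA.FSTKO_hFSTL3 that barcode held 32.2%, and the level without it was 408 CPM (310 to 526).

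The order of Smad1 in KPCA.FSTKO, from endothelial-like over stromal-like, cancer-like and macrophage-like to T/NK-like cells (23.6 CPM), had every neighbouring step larger than its counting interval, and neutrophil-like cells (14.7 CPM) and erythroid-like cells (4.90 CPM) followed without clear steps. The share of cells with a Smad1 UMI, thinned to 1000 UMIs a cell, was 40.5% (29.3 to 52.6) in endothelial-like, 11.2% in stromal-like, 5.98% in cancer-like and 4.99% in macrophage-like cells, against 0 of 79 erythroid-like cells (exact upper limit 4.56%).

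Smad5 (chr13:56703010-56742377, plus strand) followed the same order at the top. It was at 115 CPM in endothelial-like (92.7 to 142), 48.9 in stromal-like, 21.2 in cancer-like and 14.1 CPM in macrophage-like cells of KPCA.FSTKO. The KPCA.FSTKO_hFSTL3 library gave 110, 45.4, 23.3 and 14.3 CPM. The ratio of endothelial-like to cancer-like cells was 5.44 (4.35 to 6.73) and 4.72 (2.79 to 7.48). With little acinar RNA the log2 ratios to cancer-like cells in KPCA.FSTKO_hFSTL3 were 1.61 in place of 2.24 for endothelial-like, 0.39 in place of 0.96 for stromal-like and -1.21 in place of -0.70 for macrophage-like cells. Smad9 (chr3:54755582-54801257, plus strand) had 13 UMIs in 13 of the 6777 cells of KPCA.FSTKO and 4 UMIs in 4 of the 4041 cells of KPCA.FSTKO_hFSTL3, and no endothelial-like cell of KPCA.FSTKO had one, where a count of 0 allows up to 3.89 CPM (3 UMIs). Counts that low give no order of classes.

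The promoters of the 3 members with the highest ratio of endothelial-like to cancer-like cells in KPCA.FSTKO are shown because these members stood together in that class. Each runs 5′ to 3′ on the strand of its gene from 250 bases before to 10 bases after a RefSeq start (GRCm38.p6), with capitals at a match to the palindromic SMAD-binding element GTCTAGAC or to GGCGCC, a GC-rich element that BMP-branch SMADs are known to bind. Both motifs read the same on both strands and do not overlap here.
Smad6 (chr9:64022050-64022309, minus strand): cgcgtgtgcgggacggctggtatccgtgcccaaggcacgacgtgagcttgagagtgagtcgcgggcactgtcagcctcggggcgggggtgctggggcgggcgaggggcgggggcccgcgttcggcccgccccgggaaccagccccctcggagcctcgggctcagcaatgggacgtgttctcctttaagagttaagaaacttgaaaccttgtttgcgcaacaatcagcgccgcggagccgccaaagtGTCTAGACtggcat
Smad1 (chr8:79399419-79399678, minus strand): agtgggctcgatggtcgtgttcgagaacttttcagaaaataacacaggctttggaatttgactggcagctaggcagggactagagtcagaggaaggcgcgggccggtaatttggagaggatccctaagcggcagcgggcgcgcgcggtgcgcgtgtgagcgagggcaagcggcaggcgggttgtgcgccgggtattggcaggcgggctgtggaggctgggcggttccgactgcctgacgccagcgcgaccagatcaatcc
Smad5 (chr13:56702802-56703061, plus strand): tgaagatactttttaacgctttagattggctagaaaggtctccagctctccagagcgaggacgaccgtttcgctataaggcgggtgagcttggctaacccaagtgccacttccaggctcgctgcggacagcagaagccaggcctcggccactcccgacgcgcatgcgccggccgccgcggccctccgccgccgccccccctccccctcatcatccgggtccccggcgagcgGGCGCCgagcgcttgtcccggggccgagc
The element in Smad6 begins 4 bases before the start, and it was found in 58 of 32851 windows of this length (0.177%). GGCGCC lay 19 bases before the start of this Smad5 window, 1 of 3 listed for the gene of which the other two hold neither motif, and occurred in 9.96% of all windows. Smad1 held neither. Smad9 and Ski had GGCGCC at 51 and 220 bases before their starts, and the Smad3 window held neither motif. A match is a description of the letters and says nothing of binding.

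Smad4, the partner that both branches share, was highest among the 4 main classes in macrophage-like cells of KPCA.FSTKO, at 122 CPM (116 to 128), with endothelial-like cells at 101, stromal-like at 95.7 and cancer-like cells at 72.7 CPM. The steps from macrophage-like to endothelial-like and from endothelial-like to stromal-like cells were within their counting intervals, while stromal-like cells were below macrophage-like (ratio 0.785, 0.717 to 0.859) and above cancer-like cells (1.32, 1.22 to 1.42). Neutrophil-like cells, found in numbers only in that library (99 cells), had 186 CPM on 63 UMIs. KPCA.FSTKO_hFSTL3 had 105 CPM in macrophage-like, 110 in endothelial-like, 89.7 in stromal-like and 52.0 CPM in cancer-like cells, or 91.9 CPM in the 198 cancer-like cells with little acinar RNA. Over all cancer-like cells that class was thus lowest of the 4 in both libraries. The ratio of macrophage-like to cancer-like cells was 2.02 in KPCA.FSTKO_hFSTL3 (1.78 to 2.28) against 1.68 in KPCA.FSTKO (1.58 to 1.78). With little acinar RNA the first shrank to a log2 ratio of 0.28. Stromal-like cells of KPCA.FSTKO_hFSTL3 then stood near the cancer-like level (log2 ratio -0.05 in place of 0.79), as did endothelial-like cells (0.07 in place of 1.08). Smad4 lies at chr18:73639009-73703780 on the minus strand.

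The inhibitory SMADs differed in level and in pattern. Smad7, which is induced by TGF-beta and activin and blocks their receptors (chr18:75367529-75395935, plus strand), was at 77.0 CPM in cancer-like, 122 in stromal-like, 92.1 in endothelial-like and 33.3 CPM in macrophage-like cells of KPCA.FSTKO. KPCA.FSTKO_hFSTL3 had 83.6, 140, 110 and 40.9 CPM. Macrophage-like cells were lowest of the 4 in both, at 0.433 (0.390 to 0.479) and 0.489 (0.402 to 0.588) of the cancer-like level, as for Smad3. With little acinar RNA the cancer-like cells of KPCA.FSTKO_hFSTL3 had 127 CPM of Smad7, and the log2 ratio to them was -1.71 in place of -1.03 for macrophage-like, 0.04 in place of 0.74 for stromal-like and -0.77 in place of 0.39 for endothelial-like cells. The 47 T/NK-like cells of KPCA.FSTKO had 163 CPM on 62 UMIs (125 to 209), above stromal-like cells by a ratio of 1.33 (1.01 to 1.72), and 14 dendritic-like cells had 159 CPM on 32 UMIs. Smad3 in the T/NK-like cells was at 42.0 CPM on 16 UMIs.

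Smad6, an inhibitor chiefly of the BMP branch (chr9:63953076-64022059, minus strand), had 709 and 402 UMIs in all and was seen in 8.72% and 8.14% of the cells. In KPCA.FSTKO it was at 20.8 CPM in endothelial-like (16 UMIs, 11.9 to 33.7), 8.28 in stromal-like, 5.74 in macrophage-like and 4.67 CPM in cancer-like cells. Endothelial-like cells were 4.45-fold (2.52 to 7.30) above cancer-like cells. The 12 endothelial-like cells of KPCA.FSTKO_hFSTL3 held 1 Smad6 UMI, or 6.10 CPM (0.154 to 34.0), too few to place that class.

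Of the corepressors, Ski (chr4:155154075-155222592, minus strand) followed Smad4. It was at 118 CPM in macrophage-like, 108 in endothelial-like, 99.9 in stromal-like and 64.3 CPM in cancer-like cells of KPCA.FSTKO. Levels in KPCA.FSTKO_hFSTL3 were 152, 140, 99.8 and 59.1 CPM. Macrophage-like cells exceeded cancer-like cells 1.83-fold (1.73 to 1.94) and 2.57-fold (2.32 to 2.85), and the second value held with little acinar RNA (log2 ratio 1.31 in place of 1.36). Neutrophil-like cells of KPCA.FSTKO had 224 CPM on 76 UMIs. Skil (chr3:31095058-31122577, plus strand), itself a target of TGF-beta, was flatter, at 77.3 CPM in cancer-like, 77.7 in stromal-like, 73.9 in endothelial-like and 93.1 CPM in macrophage-like cells of KPCA.FSTKO, against 71.6, 96.5, 104 and 117 CPM in the other library, where cancer-like cells with little acinar RNA had 104 CPM and the log2 ratio to them was -0.11 in place of 0.43 for stromal-like and 0.23 in place of 0.71 for macrophage-like cells.

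Counted by the 2-fold rule over the 9 members with enough UMIs, 2 were higher in stromal-like than in cancer-like cells of KPCA.FSTKO and none lower, where 30.4% of all genes differed that way and 14.7% were higher. The 2 were Smad1 and Smad5, and Smad1 fell just under 2-fold (log2 ratio 0.94) with edgeR's TMM scaling. In macrophage-like against cancer-like cells 2 were lower (Smad3 and Smad7) and none higher, against 47.9% of all genes in either direction and 31.7% lower. In endothelial-like against cancer-like cells 3 were higher (Smad1, Smad5 and Smad6) and none lower, against 44.1% in either direction and 19.3% higher. In KPCA.FSTKO_hFSTL3 stromal-like cells had 2 higher (Smad1 and Smad6), beside 35.9% of all genes in either direction and 20.4% higher. Smad6 had a log2 ratio of 2.69, or 1.499 without the top barcode of each class. Both members stayed past 2-fold with little acinar RNA. Macrophage-like cells had 2 higher (Smad4 and Ski) and 1 lower (Smad7), beside 47.3% of all genes, 22.3% higher and 25.0% lower. With little acinar RNA Smad4 was no longer past 2-fold, and Smad3 (log2 ratio -1.89) and Smad5 (-1.21) were 2-fold lower beside Smad7. The 12 endothelial-like cells had 5 higher (Smad1, Smad2, Smad4, Smad5 and Ski), beside 62.8% of all genes and 27.9% higher, with TMM scaling Smad1 and Smad5 alone, and with little acinar RNA all but Smad4. Those 12 cells had a median acinar share of 0.173%, close to the 0.2% limit, so the last count may rest on fewer of them. The median log2 ratio of the members beside that of all genes was 0.63 and -0.12 for stromal-like, -0.23 and -0.40 for macrophage-like and 0.74 and 0.04 for endothelial-like over cancer-like cells of KPCA.FSTKO.

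Ratios among the members do not depend on how a class is scaled. Among the UMIs of receptor-activated SMADs, the BMP branch held 43.9% (43.2 to 44.7) in cancer-like, 52.1% in macrophage-like, 64.3% in stromal-like and 82.5% in endothelial-like cells of KPCA.FSTKO. KPCA.FSTKO_hFSTL3 had 39.7% (34.9% with little acinar RNA), 40.5%, 64.4% and 80.9%. Stromal-like and endothelial-like cells thus leaned to the BMP branch by similar shares in both libraries, while the share in macrophage-like cells was lower in KPCA.FSTKO_hFSTL3 (interval 35.5 to 45.7) than in KPCA.FSTKO (49.5 to 54.7). Among all SMAD UMIs of KPCA.FSTKO the inhibitory SMADs held 23.9% for cancer-like, 26.2% for stromal-like, 13.6% for macrophage-like and 10.4% for endothelial-like cells. T/NK-like cells had 40.5% (32.7 to 48.8) on 153 SMAD UMIs. In KPCA.FSTKO_hFSTL3 the main classes had 30.3%, 31.6%, 16.2% and 11.3% in the same order, and cancer-like cells with little acinar RNA had 28.4%. The stromal-like 31.6% rested on 308 inhibitory UMIs. The barcode with the most Smad6 UMIs held 34 of Smad6 and 38 of Smad7 among these. Leaving out the 5% of barcodes with the most Smad6 and Smad7 UMIs gave 24.0%, against 21.7% in stromal-like cells of KPCA.FSTKO. Such a removal by its design tends to lower the share in any class. Skil held 54.6% of the corepressor UMIs for cancer-like cells of KPCA.FSTKO, against 43.8%, 44.1% and 40.7% for stromal-like, macrophage-like and endothelial-like cells, and 54.8% (63.9% with little acinar RNA) for cancer-like cells of KPCA.FSTKO_hFSTL3.

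**Figure D2:**
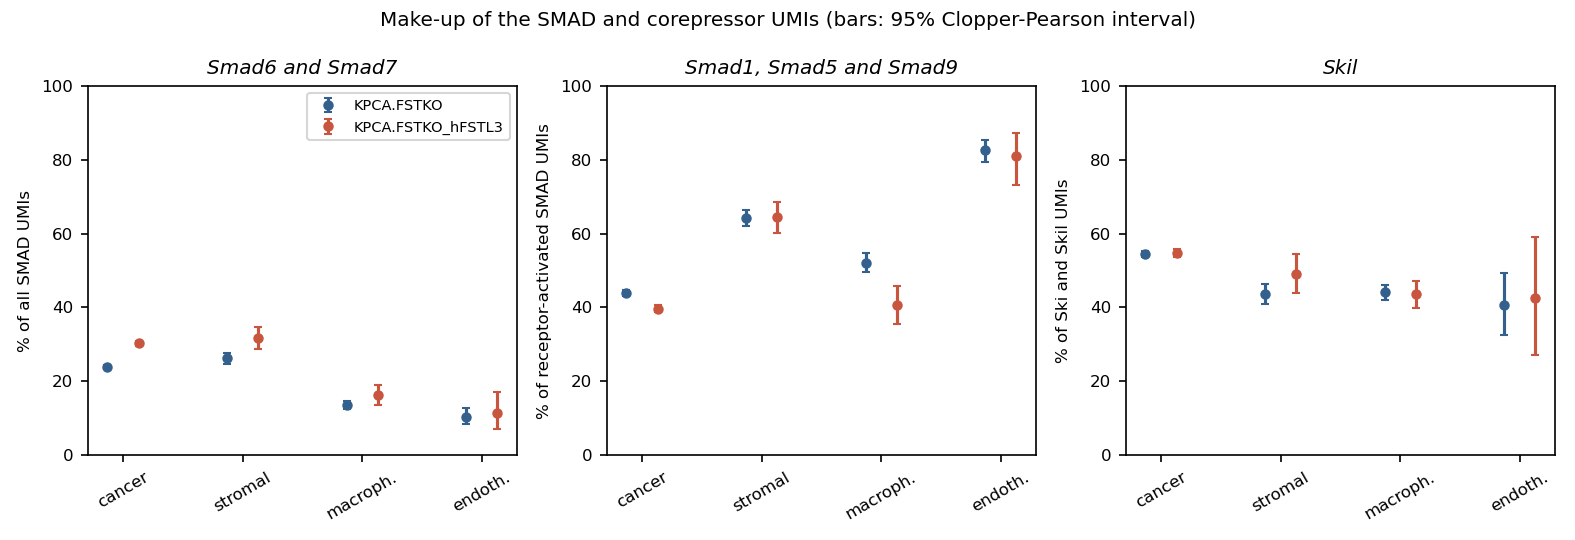
Shares of UMIs by class and library, on axes from 0 to 100%, with exact 95% Clopper-Pearson intervals as bars, for KPCA.FSTKO (blue) and KPCA.FSTKO_hFSTL3 (red). The left panel gives Smad6 and Smad7 among all SMAD UMIs, the middle panel Smad1, Smad5 and Smad9 among receptor-activated SMAD UMIs, highest at 82.5% and 80.9% in endothelial-like cells, and the right panel Skil among Ski and Skil UMIs.

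Inside the cancer-like class members were compared by a sign of cell division. In KPCA.FSTKO 1909 cancer-like cells had a UMI of Mki67 or Top2a, genes of dividing cells, and 1116 had none. Ratios of the first to the second lay between 0.864 (Smad6) and 1.03 (Ski), and no member differed by 2-fold, where 3.33% of all genes did. In KPCA.FSTKO_hFSTL3 they lay between 0.748 (Skil) and 1.21 (Smad6), with 0.661% of all genes past 2-fold. Deeper cells are more likely to show such a UMI (median 35457 against 25707.5 UMIs in KPCA.FSTKO), and the part of depth in these ratios was not tested.

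The comparison between the lines asks whether SMAD RNA differs where the cancer cells secrete human FSTL3. In cancer-like cells no member with enough UMIs differed by 2-fold, where 20.5% of all genes did, and ratios of KPCA.FSTKO_hFSTL3 to KPCA.FSTKO ran from 0.612 (Smad1) to 1.10 (Smad6). Among the cells with an acinar share up to 0.2% none differed by 2-fold either, against 10.0% of all genes. Yet the direction of 4 members turned between the 2 sets of cells. The log2 ratio over all cancer-like cells and over those with little acinar RNA was -0.29 and 0.49 for Smad2, -0.12 and 0.66 for Smad3, -0.48 and 0.34 for Smad4 and -0.11 and 0.43 for Skil. Smad5 (0.13 and 0.69) was higher and Smad1 (-0.71 and -0.27) lower in both. Smad7 had 0.12 and 0.72, but -0.05 without the 5% of barcodes with the most UMIs, and Ski -0.12 and -0.13, but 0.03 with a total that leaves out mitochondrial, ribosomal, hemoglobin and acinar genes. Smad6 had 0.14 and 0.41, each with an interval that held 0. Between the same 2 sets the median log2 ratio of the members moved from -0.12 to 0.43 and that of all genes from -0.23 to 0.02. Within KPCA.FSTKO_hFSTL3, cancer-like cells with little acinar RNA had more Smad4 (91.9 against 44.5 CPM), Smad3 (98.9 against 49.7 CPM) and Smad2 (59.3 against 29.8 CPM) than the rest, and Smad4 alone of the members passed 2-fold, where 23.8% of all genes did and 13.1% were higher. Those 198 cells also had a median of 46179 UMIs and a mitochondrial share of 3.59%. How far acinar RNA, depth and mitochondrial share set the directions was not tested, and with 1 library a line the transgene, the clone and the library cannot be told apart.

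**Figure D3:**
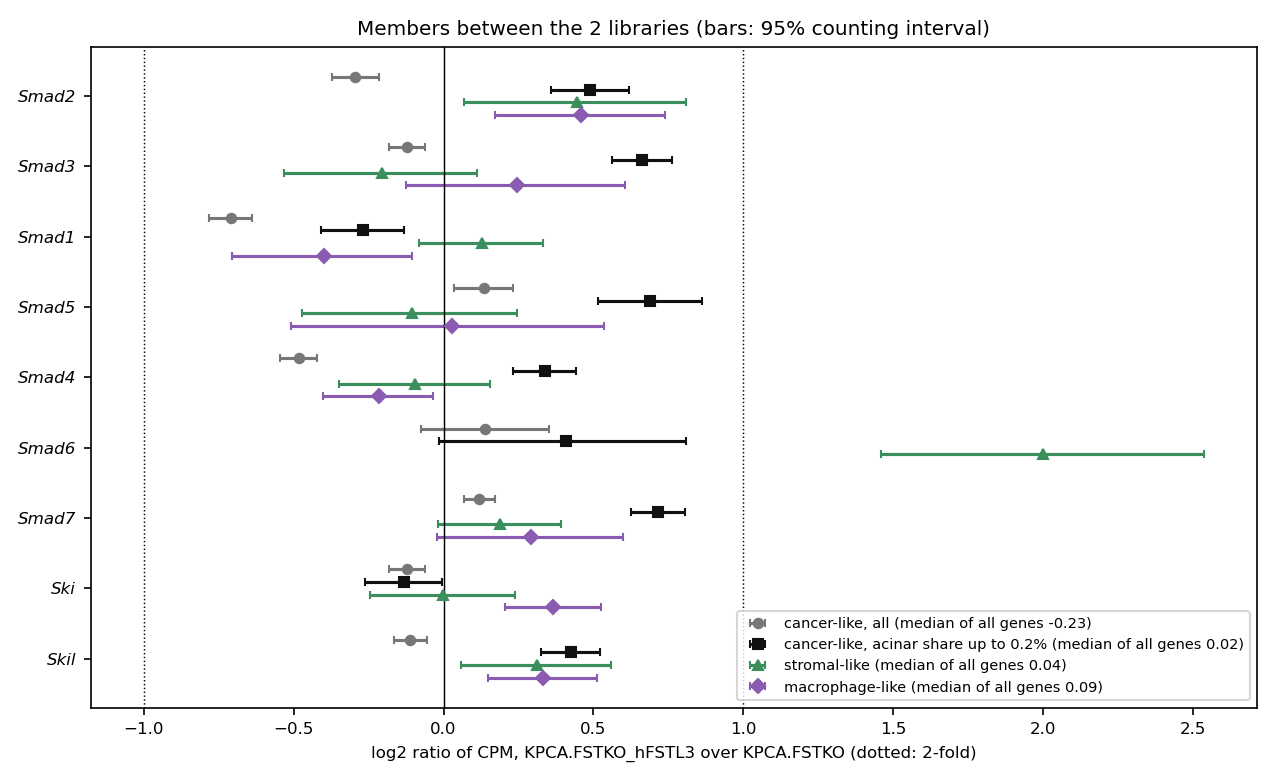
Log2 ratio of CPM, KPCA.FSTKO_hFSTL3 over KPCA.FSTKO (x axis), of each member with at least 100 UMIs, in all cancer-like cells (grey), cancer-like cells with an acinar share up to 0.2% (black), stromal-like (green) and macrophage-like cells (purple), with exact 95% intervals as bars and dotted lines at 2-fold. Smad2, Smad3, Smad4 and Skil lie left of 0 in grey and right of 0 in black, and stromal-like Smad6 at 2.00 is the only point past 2-fold.

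In stromal-like cells 1 of 9 members, Smad6, was 2-fold higher in KPCA.FSTKO_hFSTL3, where 4.16% of all genes differed by 2-fold and 1.63% were higher. It had 62 UMIs over 392 cells in KPCA.FSTKO and 59 over 74 cells in KPCA.FSTKO_hFSTL3, or 8.28 and 33.1 CPM, a ratio of 4.00 (2.75 to 5.80). A single barcode of KPCA.FSTKO_hFSTL3 held 34 of the 59 UMIs and a second held 8, while no barcode of KPCA.FSTKO had more than 4. Without the first, the level was 14.3 CPM (9.28 to 21.2). With the top barcode of each library left out (7.78 CPM in KPCA.FSTKO), the log2 ratio was 0.88, under 2-fold. That barcode had 39059 UMIs and reached the mesothelial list with 4 raised markers and the fibroblast list with 5, with 35 UMIs of Wt1, a transcription factor of mesothelium, and none of the endothelial marker Pecam1. It also held 38 Smad7 UMIs, 15.3% of all Smad7 UMIs of the class, and 9 of Smad1. The other 8 members lay between ratios of 0.868 (Smad3) and 1.36 (Smad2), with intervals above 1 for Smad2 (1.05 to 1.75) and Skil (1.24, 1.04 to 1.47). These intervals do not cover the choice of scaling or of barcodes. Smad2 had a log2 ratio of 0.35 in place of 0.44 with TMM scaling, and Skil 0.21 in place of 0.31 without its top barcode in each library. Each move was larger than the distance of the log2 lower limit from 0.

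**Figure D4:**
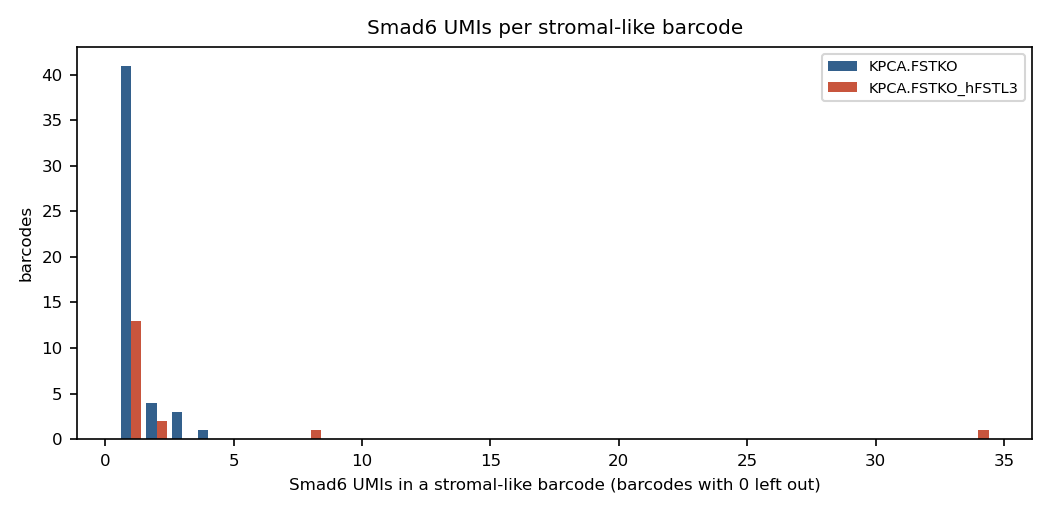
Number of stromal-like barcodes (y axis, from 0) by their Smad6 UMIs (x axis), for KPCA.FSTKO (blue) and KPCA.FSTKO_hFSTL3 (red), with barcodes at 0 left out. All 49 barcodes of KPCA.FSTKO and 15 of the 17 of KPCA.FSTKO_hFSTL3 hold 1 to 4 Smad6 UMIs, and the remaining ones hold 8 and 34.

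In macrophage-like cells none of 8 members differed by 2-fold, where 3.29% of all genes did. Smad2 (ratio 1.37, 1.13 to 1.67), Ski (1.29, 1.15 to 1.44) and Skil (1.26, 1.11 to 1.43) were higher in KPCA.FSTKO_hFSTL3, and Smad1 (0.758, 0.613 to 0.930) and Smad4 (0.861, 0.757 to 0.977) lower. With TMM scaling the log2 ratios were 0.24 in place of 0.46 for Smad2, 0.15 in place of 0.37 for Ski and 0.12 in place of 0.33 for Skil. Each move was larger than the distance of the log2 lower limit from 0. Smad1 (-0.62 in place of -0.40) and Smad4 (-0.43 in place of -0.22) lay lower with that scaling. Endothelial-like cells gave 3 members with enough UMIs and no 2-fold difference, against 6.16% of all genes, and Smad1 there had a ratio of 0.881 whose interval (0.693 to 1.11) held 1.

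The proteins that act on SMADs and their target genes give the setting. Between the libraries 20.5% of all genes differed by 2-fold in cancer-like cells, 10.7% higher and 9.79% lower. With little acinar RNA 10.0% of all genes did, in either direction. Of 26 SMAD regulators (ubiquitin ligases, phosphatases, importers and coregulators), 25 had enough UMIs in cancer-like cells and 2 differed by 2-fold between the libraries: Bambi, a decoy receptor, was higher at 3.54 against 0.491 CPM, and Zfyve9 (SARA), which anchors SMAD2 and SMAD3 near the receptor, lower at 19.5 against 39.8 CPM. With little acinar RNA none of 24 did, Bambi having only 6 UMIs in KPCA.FSTKO_hFSTL3 and Zfyve9 a log2 ratio of 0.06. The list's median log2 ratio was -0.47 over all and 0.29 over the latter cells, beside -0.23 and 0.02 for all genes. Of 13 activin and TGF-beta targets, Col1a1 (log2 ratio 3.90) and Thbs1 (1.26) were 2-fold higher, but with little acinar RNA Col1a1 had 1.07 and Thbs1 -0.73. Col1a1 is also a fibroblast marker, and the 12 fibroblast markers together were at 1587 against 686 CPM over all cancer-like cells. Ccn2 (log2 ratio -0.40), a direct SMAD3 target in many cell types, did not reach 2-fold. Of 9 BMP targets 6 had enough UMIs, and Bambi, Id3 (1.20) and Id4 (1.09) were higher, while with little acinar RNA Id3 was lower (-1.93, 60 UMIs) and Id4 had 10 UMIs. The lists share genes, since Tgif1 and Pmepa1 stand among regulators and activin targets and Bambi among regulators and BMP targets.

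In stromal-like cells the activin and TGF-beta targets Ccn2 (289 against 119 CPM) and Ltbp2 (51.6 against 24.2 CPM) were 2-fold higher in KPCA.FSTKO_hFSTL3 and none of 13 lower, beside 4.16% of all genes, while no SMAD regulator (of 24) and no BMP target (of 6) differed by 2-fold. The 10 mural markers, of contractile vessel cells, summed to 3980 against 1824 CPM in the same cells, and 16 of 74 against 29 of 392 of them reached both the fibroblast and the mural list. The part of this make-up in the 2 ratios was not tested. In macrophage-like cells none of 24 regulators or 3 BMP targets did. Id2 there stood at 213 against 369 CPM.

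Across the classes of KPCA.FSTKO, stromal-like cells had 5 of 7 BMP targets 2-fold higher than cancer-like cells and 2 lower, where 14.7% of all genes were higher and 15.8% lower. The Id genes, inhibitors of differentiation factors and classic BMP targets, split, with Id3 at 407 against 24.8 CPM, but Id1 at 17.9 against 74.1 CPM and Id2 at 23.9 against 89.2 CPM. In endothelial-like cells Id3 was at 192 CPM and Id1 at 109 CPM, the latter 1.47-fold (1.17 to 1.82) above cancer-like cells. Of the 4 BMP targets with enough UMIs there, 1 was 2-fold higher than in cancer-like cells and 1 lower, where 19.3% and 24.8% of all genes were. Smurf2, a ubiquitin ligase of SMADs, was at 219 CPM in endothelial-like cells against 60.9 CPM, and Crebbp, a coactivator, at 185 against 83.3 CPM. Macrophage-like cells had the ligase Wwp1 at 116 against 37.2 CPM and the deubiquitinase Usp15 at 104 against 51.2 CPM, but Smurf1 at 33.8 against 98.3 CPM and Trim33, a SMAD cofactor, at 41.4 against 111 CPM. In all, 3 of 25 regulators were higher and 6 lower in macrophage-like than in cancer-like cells, where 16.2% of all genes were higher and 31.7% lower. In endothelial-like cells 4 of 24 were higher and 3 lower, where 19.3% and 24.8% of all genes were, and in stromal-like cells 1 of 25 was higher and 4 lower. In KPCA.FSTKO_hFSTL3, over all cancer-like cells, 5 of 25 were higher and 2 lower in macrophage-like cells (22.3% and 25.0% of all genes), 13 and 2 in endothelial-like cells (27.9% and 34.9%) and 5 and 1 in stromal-like cells (20.4% and 15.5%).

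Over the 10 sums of a class in a library with at least 30 cells, and among 10680 genes with at least 1000 UMIs, the genes whose log2(CPM + 1) went most closely with Smad3 were Rab23, Stxbp4 and Carm1, with Pearson r of 0.990, 0.982 and 0.974. For Smad7 they were Zfp266, Ssbp3 and Phtf1 (0.967, 0.965 and 0.964), and for Smad6 Nav1, Ppp2r1b and Myadm (0.947, 0.943 and 0.937). The sums share libraries, depth and free RNA, and with 10 points and so many genes such values are a description only.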

How the data were processed

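Single cells of 4 pooled omental tumors per line were captured with a 10x Genomics 3′ kit, 1 library a line. The authors deposited, without normalization, raw UMI counts per gene and barcode, made with Cell Ranger against the mm10 reference. The version is 3.1.0 per the labels and 7.2.0 per the file headers, which may differ in whether intronic reads were counted. Total depth was 168214773 and 80391504 UMIs. Depth sets the counting error given by the intervals and also which barcodes can reach a class, since each marker needs at least 2 UMIs.

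Barcodes with a mitochondrial share of 20% or more, or with 200 or fewer or 8000 or more genes, were removed. A barcode joined a class when enough of its marker genes were raised, meaning at least 2 UMIs and at least 3 times the library mean (for the cancer list at least 1 in 3 parts of that mean). At least 4 markers were needed for lists of 10 or more genes, 3 for lists of at most 8 and 5 for the cancer list. In KPCA.FSTKO 499 cancer-like barcodes had the minimum of markers and 491 others had 1 fewer, and in KPCA.FSTKO_hFSTL3 498 and 300 did. Barcodes that met several lists were left out of classes (96 and 36). Doublets were otherwise kept, since no doublet step is named in the methods, and an alternative leaves out the 5% of barcodes with the most UMIs.

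UMIs were summed per class and library. With 1 library a line there is no test, and intervals are exact at 95% (Poisson for CPM, conditional binomial for ratios and Clopper-Pearson for shares). Genes of the pathway lists were named by the 3 highest and 3 lowest ratios with at least 100 UMIs, and every member was named. The result of 1 gene of these lists is not reported here. The class sums were made with pandas 2.3.3, scipy 1.17.1 and numpy 2.4.6 under Python 3.11.15, and edgeR 4.0.16 in R 4.3.3 was used for TMM scaling as an alternative only. The size rule was tested on simulated data. Members and lists were chosen with earlier results of these data known, and the rule that scores markers, the 0.2% acinar limit and the removal of a member's top barcode were set after the data were seen.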

Additional observations from a re-analysis of the deposited data

Results flagged for a closer look

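Smad2, a receptor-activated SMAD of activin and TGF-beta, stood on opposite sides of the cancer-like level in the 2 libraries. Its log2 ratio of stromal-like to cancer-like cells was -0.32 in KPCA.FSTKO and 0.42 in KPCA.FSTKO_hFSTL3, and that of macrophage-like to cancer-like cells was -0.23 and 0.52. With 1 library a line the difference was not tested. Set against the KPCA.FSTKO_hFSTL3 cancer-like cells with an acinar share up to 0.2%, the stromal-like and macrophage-like values of that library were -0.37 (-0.72 to -0.03) and -0.26 (-0.54 to 0.01).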

How the results depend on the processing

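No paired analysis was possible because each line gave 1 library and no test was made. No ratio of a member past 2-fold changed sign, while the pathway genes Zfyve9, Thbs1 and Id3 did in cancer-like cells with little acinar RNA. Of 29 member ratios between the libraries, 24 to 29 kept their direction under each alternative, as did 46 to 53 of the 53 or 54 between classes. The cause of changes was not tested except where a lower limit admits more genes. Between the libraries 2885, 357, 292 and 113 genes differed by 2-fold in cancer-like, stromal-like, macrophage-like and endothelial-like cells. With a minimum of 20 UMIs these were 4687, 1178, 1063 and 1128, and with a ratio of 1.5 they were 5890, 1175, 1058 and 389. Cancer-like cells gave 1673 with mitochondrial shares below 10% and 1285 with acinar shares up to 0.2%, and endothelial-like cells 173 with 1 more marker. Against cancer-like cells of KPCA.FSTKO, a minimum of 20 UMIs gave 6074 genes in stromal-like and 8575 in endothelial-like cells (4018 and 5660 in the report's counting), and a ratio of 1.5 gave 6672 in stromal-like cells. In KPCA.FSTKO_hFSTL3 stromal-like cells (4496) gave 6822 with 20 UMIs, 7240 with a ratio of 1.5 and 2543 with an acinar share up to 0.2%, and endothelial-like cells (7804) gave 4929 with the mitochondrial and 3832 with the acinar limit.

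Of the members, a ratio of 1.5 gave 1 between the libraries in cancer-like cells, 5 in each of stromal-like, macrophage-like and endothelial-like against cancer-like cells for KPCA.FSTKO, and 6 in stromal-like and in macrophage-like cells of KPCA.FSTKO_hFSTL3. Between the libraries in stromal-like cells 0 were left without the 5% of barcodes with the most UMIs, without the 5% with the most UMIs of the member, and without the member's top barcode in each library. TMM scaling or a total without mitochondrial, ribosomal, hemoglobin and acinar genes left 1 in stromal-like cells of KPCA.FSTKO. In KPCA.FSTKO_hFSTL3 macrophage-like cells had 1 with 1 more marker and 5 without the 5% of barcodes with the most UMIs of the member, and endothelial-like cells 2 with TMM, 3 with the other total, 2 below 10% mitochondrial UMIs and 3 with 1 more marker.

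For each share, the 5% of barcodes with the most UMIs of the genes it counts were left out, which by its design tends to lower it. These genes were Smad6 and Smad7, the BMP-branch SMADs, or Skil. The inhibitory share in KPCA.FSTKO was then 21.2%, 21.7%, 9.52% and 8.42% in cancer-like, stromal-like, macrophage-like and endothelial-like cells. In KPCA.FSTKO_hFSTL3 it was 28.3%, 24.0% and 12.02% in the first 3 of these classes. The BMP-branch share was 41.0%, 61.7% and 47.3% in these 3 classes of KPCA.FSTKO and 38.0% in cancer-like cells of KPCA.FSTKO_hFSTL3, and the Skil share 51.7%, 39.6% and 40.2%, and 51.0% and 42.7% in cancer-like and stromal-like cells of KPCA.FSTKO_hFSTL3. In the cancer-like cells of that library, a mitochondrial share under 10% gave an inhibitory share of 29.2%, a BMP-branch share of 37.1% and a Skil share of 58.9%. An acinar share up to 0.2% gave 28.4%, 34.9% and 63.9%, and up to 1% a Skil share of 57.5%. No filter gave a Skil share of 56.0%, and leaving out the 5% of barcodes with the most UMIs gave 53.2% and a BMP-branch share of 40.8%. Thinned to 2000 UMIs, 11.05%, 23.4%, 9.10% and 66.2% of cancer-like, stromal-like, macrophage-like and endothelial-like cells of KPCA.FSTKO had a Smad1 UMI, and 12.1%, 12.9% and 4.67% of the first 3 a Smad3 UMI. Precision is limited by the number of endothelial-like cells of KPCA.FSTKO_hFSTL3 (12) and of Smad9 UMIs (13 and 4).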
